A study of Mus musculus with 9 samples.

Results

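The genes described here encode members of the interleukin-1 cytokine family and components of the inflammasome, measured by RNA sequencing in cultured mouse primary macrophages. They are Il1f9, Il1a, Il1b, Il1rn, Il18, Il1rap, Nlrp3, Pycard, Casp1 and Gsdmd, 10 of the 34866 genes in the deposited tables, found there by their Ensembl identifiers. All macrophages were grown in alpha-MEM with fetal bovine serum and L929-conditioned medium, which supplies the macrophage growth factor CSF1. The standard group was kept in standard oxygen for 7 days, the acute hypoxia group was kept in standard oxygen and then held for 3 h in 1% oxygen, and the chronic hypoxia group spent 7 days in 1% oxygen. Each group held 3 libraries that the study calls biological replicates. Strain, sex, age and tissue of origin were not given in the labels used here, and cultures were not linked to animals. Levels are in TPM, transcript abundances corrected for length that sum to 1000000 in every library, so the depth behind each value is unknown.

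Interleukin-1 alpha (Il1a) and interleukin-1 beta (Il1b) bind a receptor that pairs with the accessory chain Il1rap and signals through MyD88 and IRAK kinases to NF-kappaB. The antagonist Il1rn occupies that receptor without recruiting the accessory chain. Il1f9 encodes interleukin-36 gamma, a relative that signals through Il1rl2 and the same accessory chain. Interleukin-1 beta and interleukin-18 are made as inactive precursors. In the inflammasome a sensor such as NLRP3 recruits the adaptor ASC (Pycard), which activates caspase-1 (Casp1). Caspase-1 cleaves both precursors and gasdermin D (Gsdmd), whose fragment forms the membrane pores of pyroptosis. In resting macrophages Nlrp3 and Il1b are known as genes that need a priming signal, whereas Pycard, Casp1 and Gsdmd are present beforehand. These steps act on protein, and only mRNA was measured here.

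The libraries carried a second grouping besides oxygen. Their descriptions share a 4-digit code in sets of 1 library per group, called code X, Y and Z here. The meaning of the code was not stated. Code X is replicate 1 of every group. Code Y is standard replicate 3, acute replicate 2 and chronic replicate 2, and code Z is standard replicate 2, acute replicate 3 and chronic replicate 3. The first principal component, with 36.9% of the variance, placed the 3 code Z libraries between 29.4 and 43.3 and the other 6 between -25 and -11.3. All 11 macrophage markers had a mean of at least 1 TPM, with a summed level of 62694.1 to 71025.8 TPM in standard, 56881.8 to 75093.4 in acute and 62505.0 to 68530.7 in chronic libraries. Most of that sum was lysozyme (Lyz2), at 52792.6 to 70403 TPM. The resident-macrophage marker C1qa was at 0.91 to 3.41 TPM in the code Z libraries. In those of codes X and Y it was at 65.3 to 71.9 TPM in standard and acute and at 281 and 443 TPM in chronic hypoxia. C1qa rose in chronic against standard with the code as a block (limma adjusted p = 0.0287), as 1 of 2 macrophage markers called there, both higher. The other, Itgam, lost the call when each library was also rescaled by its median ratio. Itgam shares 71.7% of its 75-base stretches with another gene, so its level is uncertain. With that block 18.4% of all genes tested were called. Of all 11 macrophage markers, however, 5 had a log2 difference above 0 there, and the median was -0.01. Mean levels of Adgre1 and Cd14 were 542 and 1069.7 TPM in standard and 413 and 758 TPM in chronic libraries. Those of Csf1r and Itgam went the other way, from 470 and 535 TPM to 699 and 760 TPM. For Adgre1 the code Z libraries had 488 TPM in standard and 253 in chronic. Its libraries of codes X and Y had 555 and 581 TPM in standard and 474 and 512 in chronic. Against acute hypoxia 3 macrophage markers rose and 2 fell with the block, beside 15.5% of all genes called. The calls of Csf1r and Itgam among them were lost with the same rescaling. Of 12 neutrophil markers, 5 had a mean of at least 1 TPM. Their summed level of 911 to 1634.8 TPM in standard, 954 to 1945.7 in acute and 319 to 668 in chronic libraries was mostly S100a8. Without S100a8 the neutrophil sum was 16 to 42 TPM in standard, 16.4 to 39.5 in acute and 60.4 to 86.3 in chronic libraries, higher in every chronic library. The largest part of that remainder was again a single gene, Mmp8. It was at 10.2, 37 and 6.98 TPM in standard, 9.66, 8.8 and 34.2 in acute and 56.3, 50.3 and 81.8 in chronic libraries. The higher chronic sum is thus not a rise of the whole list. S100a9 did not exceed 0.231 TPM and Retnlg was listed at 0 throughout. Dendritic cell, fibroblast, lymphocyte and mast cell sums did not exceed 1.43, 0.327, 0.354 and 0.0695 TPM. As a check of the oxygen labels, Hilpda, a lipid droplet protein induced by hypoxia, had 82.5 ± 2.72 TPM in standard, 430 ± 77.5 in acute and 128 ± 7.05 in chronic libraries (SD, n = 3). Because the code Z libraries stood apart and libraries of 1 code deviated together, results are given without a block and, where the call differs, with the code as a block or without the code Z libraries. The fits without the code Z libraries keep 2 libraries per group, and the choice to leave them out came from these same data.

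In chronic hypoxia Il1f9 was at 3.55 TPM against 29.5 in standard oxygen, the antagonist Il1rn fell to 0.612 of its standard level, and the sensor Nlrp3 was at 2.04 times its standard level. Il1a and Il1b did not exceed 4.69 and 2.32 TPM in any library, and Pycard, Casp1 and Gsdmd stayed between 57.5 and 137 TPM. After 3 h of hypoxia no member passed a limma adjusted p of 0.05 against standard oxygen in the test without a block. Of 8 hypoxia-induced genes listed as a check, the same test called 1, Hilpda, and 6 were called with the code as a block. Egln3, one of those missed without a block, was at 9.14 times its standard level with a limma adjusted p of 0.125. A gene without a call may thus still have changed. Of the 10 members, 9 had a mean of at least 1 TPM over the 6 libraries of each comparison and were tested, and Il1b did not pass that filter in any comparison. In acute against standard, 0 of 9 members were called at a Benjamini-Hochberg adjusted p under 0.05 (limma), where 0.0273% of all genes tested were called, and 0 of 9 with the code as a block, where 0.71% were. The unadjusted p was under 0.05 for 0 members without a block and for 2 with it. Without the code Z libraries 1 of 8 members, Nlrp3, was called, against a background of 2.95%. In chronic against standard, 2 of 9 members were called without a block, beside 2.69% of all genes, and 3 of 9 with the block, beside 18.4%. Without the code Z libraries 3 of 8 were called, beside 21.1%. In chronic against acute, 0 of 9 were called without a block, beside 0.695% of all genes, although 3 had an unadjusted p under 0.05. With the block 3 of 9 were called, beside 15.5%, and without the code Z libraries 3 of 8, beside 16.3%. The genes had been chosen with some of these values known, so nothing is read from the counts. Both comparisons with chronic hypoxia use the same chronic libraries, and both comparisons with standard oxygen the same standard libraries. The median log2 difference over the 9 members was 0.03, -0.01 and 0.05 in the 3 comparisons, beside 0.01, 0.16 and 0.14 over all genes tested. Rescaling each library by its median ratio brought the median of all genes to within 0.01 of 0, so in both comparisons with chronic hypoxia a member at 0 lies below the median gene.

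**Figure D1:**
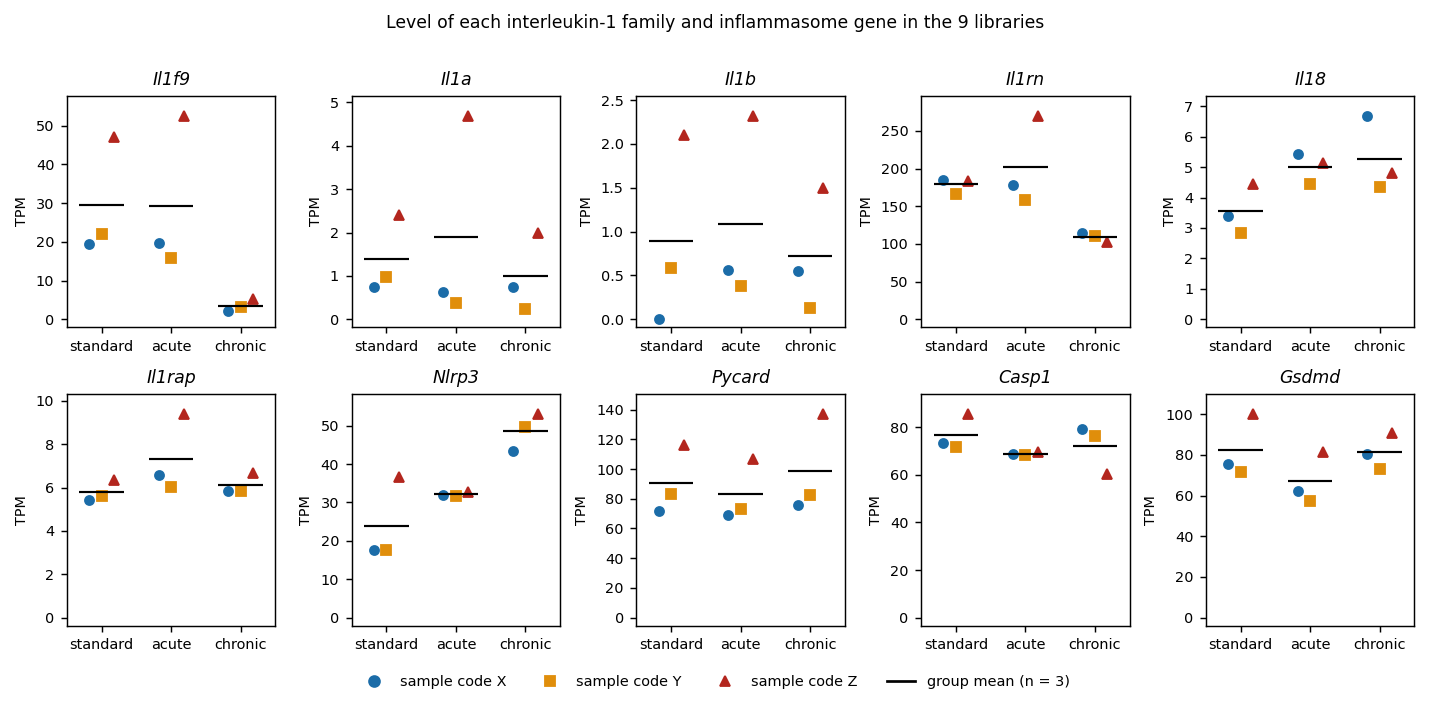
Level of each gene in TPM (vertical axis, linear, a separate scale per gene) in the 9 libraries by oxygen group (horizontal axis), with 1 point per library, marker shape for the sample code and a bar for the group mean of 3 libraries. Il1f9 and Il1rn are lower and Nlrp3 is higher in all 3 chronic libraries than in any other, while Il1a and Il1b are highest in the code Z library of each group.

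The promoter sequences of Il1f9, Il1rn and Nlrp3 are shown here because a reader may want to see the bases upstream of the start sites. Their chronic libraries did not overlap the others, and how many of all genes separate in that way was not counted. Windows of 250 bases before to 50 bases after a RefSeq start (GRCm38.p6) were matched by symbol for 9 of the 10 members, in 12 windows. They were searched on both strands for the hypoxia response element cores ACGTG and GCGTG, an AP-1 site (TGANTCA), the kappaB site and a TATA box (TATAAA). Those motifs occurred in 19.7%, 32.6%, 7.79%, 4.53% and 13.6% of all 32544 windows of the same length. Each sequence runs 5′ to 3′ on the plus strand of the genome, which is the coding strand of these genes, and capitals mark the matches. The Il1f9 window is chr2:24186226-24186525, the first Il1rn window chr2:24336610-24336909, and the 2 Nlrp3 windows are chr11:59541319-59541618 and chr11:59542436-59542735.
Il1f9: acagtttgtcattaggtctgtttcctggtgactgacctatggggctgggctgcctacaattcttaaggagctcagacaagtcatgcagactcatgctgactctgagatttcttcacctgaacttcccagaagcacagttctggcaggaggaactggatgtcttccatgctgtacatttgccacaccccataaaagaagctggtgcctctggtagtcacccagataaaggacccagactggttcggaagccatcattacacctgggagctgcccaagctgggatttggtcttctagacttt
Il1rn window 1: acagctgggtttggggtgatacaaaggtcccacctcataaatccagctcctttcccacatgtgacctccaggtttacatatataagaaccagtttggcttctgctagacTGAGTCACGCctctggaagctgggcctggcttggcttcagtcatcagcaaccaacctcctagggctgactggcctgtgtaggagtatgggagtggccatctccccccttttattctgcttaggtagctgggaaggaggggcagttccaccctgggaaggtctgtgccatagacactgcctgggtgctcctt
Nlrp3 window 1: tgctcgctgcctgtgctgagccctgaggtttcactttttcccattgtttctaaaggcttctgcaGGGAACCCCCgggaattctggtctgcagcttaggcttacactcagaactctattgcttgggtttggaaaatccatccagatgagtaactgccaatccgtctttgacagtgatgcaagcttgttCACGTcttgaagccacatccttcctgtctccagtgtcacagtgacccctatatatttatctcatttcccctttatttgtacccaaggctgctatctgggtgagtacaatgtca
Nlrp3 window 2: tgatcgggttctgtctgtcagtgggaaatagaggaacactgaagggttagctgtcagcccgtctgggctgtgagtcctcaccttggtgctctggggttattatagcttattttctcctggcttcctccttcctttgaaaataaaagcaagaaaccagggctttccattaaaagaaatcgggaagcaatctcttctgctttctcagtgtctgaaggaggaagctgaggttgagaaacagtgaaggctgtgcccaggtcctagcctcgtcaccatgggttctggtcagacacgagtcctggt
The Il1f9 window and the second Nlrp3 window held none of the 5 motifs. The first Il1rn window held an AP-1 match 141 bases before the start and, overlapping its last bases, a GCGTG core on the minus strand 136 bases before the start. Of the other Il1rn windows, 1 held no match and 1 a TATA match 15 bases after the start. The first Nlrp3 window held a kappaB match on the minus strand 186 bases before the start and an ACGTG core on the minus strand 63 bases before it. Casp1, with no call in any comparison, also held ACGTG cores 136 and 137 bases before its start, on opposite strands of the same stretch. Il1rap held 1 ACGTG and 4 GCGTG cores, Il1a an AP-1 and a TATA match, Il1b and Il18 a TATA match each, and the Pycard window none. A match describes letters only; binding was not measured.

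Il1f9 (ENSMUSG00000044103, chr2:24186476-24193568, plus strand, GRCm38) had levels of 19.5, 47.1 and 22 TPM in standard, 19.7, 15.7 and 52.5 TPM in acute and 2.22, 3.11 and 5.33 TPM in chronic libraries, in replicate order. The highest chronic library was below the lowest of the other 6, and in each group the code Z library was the highest. Group means were 29.5 ± 15.2, 29.3 ± 20.2 and 3.55 ± 1.6 TPM (SD, n = 3). Acute and standard libraries overlapped, with a log2 difference of -0.098 ± 0.51 (SE) and a limma adjusted p of 1. The standard mean was 8.31 times the chronic mean, and the difference on the log2(TPM + 1) scale, the measure of change used throughout, was -2.69 ± 0.387 (SE), the fifth lowest of 11067 genes tested. The acute mean was 8.25 times the chronic mean, with a log2 difference of -2.6 ± 0.47 (SE). Within codes X, Y and Z the chronic against standard differences were -2.67, -2.49 and -2.92. Without the code Z libraries the log2 differences were -2.58 against standard and -2.35 against acute. This gene was among those already known to be low in chronic hypoxia when the members were chosen, so its chronic values are a description with no test. S100a8, an alarmin subunit in the neutrophil list, moved in the same libraries: 912, 1592.8 and 895 TPM in standard, 937, 1022.9 and 1906.2 in acute and 274, 258 and 582 in chronic. Other neutrophil markers did not all move with it. Mmp8, a granule collagenase, had means of 18.1, 17.5 and 62.8 TPM in standard, acute and chronic libraries and rose in chronic against standard with the code as a block (2.05, limma adjusted p = 0.0214). Camp had means of 0.832 and 1.82 TPM and Csf3r of 3.88 and 6.21 TPM in standard and chronic libraries. Ngp was lower in chronic libraries, as S100a8 was, with 3.79, 0.368 and 3.53 TPM in standard and 0.208, 0 and 0.123 TPM in chronic. Camp, Csf3r and Ngp were not called there without or with the block. Without the code Z libraries 2 of the 5 neutrophil markers tested were higher in chronic against standard and 2 lower, beside 21.1% of all genes called. The part of such cells in the Il1f9 values was not tested. In these bulk libraries fewer cells of a type and less RNA per cell cannot be told apart, here and for every gene below.

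Il1f9 lies in a cluster of interleukin-1 family genes on chromosome 2, between Il1f8 (chr2:24153161-24160519) and Il1f6 (chr2:24215418-24225702), with Il1f5, Il1f10 and Il1rn farther along. Its neighbour Il1f6, which encodes interleukin-36 alpha, had 0.189, 2.55 and 0.738 TPM in standard, 2.12, 1.87 and 4.4 TPM in acute and 1.05, 0.112 and 0.952 TPM in chronic libraries. All 3 acute libraries of Il1f6 were above all 3 chronic ones, and standard libraries spanned both. In chronic against acute Il1f6 had a log2 difference of -1.15 with a limma adjusted p of 0.157, and it fell with the code as a block (0.0405). The adjusted p was 0.116 when the code Z libraries were left out. Il1f8 and Il33 were above 0 in 1 library each, at 0.0616 and 0.0618 TPM, Il1f5 did not exceed 0.0984 TPM and Il1f10 was listed at 0 in all 9. The interleukin-36 receptor chain Il1rl2 was at 0.704 to 1.05 TPM in the libraries of codes X and Y and at 0.016 to 0.035 TPM in those of code Z, where Il1f9 was highest.

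Over the 9 libraries, Il1f9 was most alike in log2(TPM + 1) to Rnf128 (Pearson r 0.990), Bcl2a1d (0.984) and 4933430I17Rik (0.982), among 11064 genes compared. Rnf128, an E3 ubiquitin ligase, had mean levels of 394, 382 and 196 TPM in standard, acute and chronic libraries. Bcl2a1d, a survival gene of the BCL2 family with close copies in the mouse genome, had 25.5, 25.1 and 8.89 TPM, and its level is uncertain because reads of such copies can be split. The 9 points share oxygen groups and codes, so these values describe likeness only.

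Il1a (ENSMUSG00000027399, chr2:129299610-129309972, minus strand) had 0.753, 2.41 and 0.986 TPM in standard, 0.628, 0.366 and 4.69 TPM in acute and 0.742, 0.244 and 1.99 TPM in chronic libraries. The groups overlapped, and the highest library of each was the one of code Z. The log2 differences were 0.03 ± 0.586 (SE) in acute against standard, -0.29 ± 0.42 in chronic against standard and -0.32 ± 0.615 in chronic against acute, with limma adjusted p of 1, 0.718 and 0.805. Il1a was below the filter once the code Z libraries were left out.

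Il1b (ENSMUSG00000027398, chr2:129364570-129371139, minus strand) had 0, 2.1 and 0.582 TPM in standard, 0.566, 0.379 and 2.32 TPM in acute and 0.548, 0.127 and 1.5 TPM in chronic libraries. It was listed at 0 in 1 standard library, and again the code Z library was the highest of each group. Each group spanned most of the range of the others, and no fold change is given for this gene. Exons of Il1a and Il1b overlap antisense genes (Gm14023 and Il1bos), and whether reads were counted by strand was not given in the sources used here. The genes most alike to Il1b over the 9 libraries were Mypop (Pearson r 0.969), Leo1 (0.966) and Cbwd1 (0.965). Their group means lay between 5.2 and 13.3 TPM.

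Il1rn (ENSMUSG00000026981, chr2:24336853-24351494, plus strand), the receptor antagonist, was the most abundant member in 8 of the 9 libraries; in chronic replicate 3 Pycard was higher. It had 185, 184 and 167 TPM in standard, 178, 159 and 270 TPM in acute and 115, 111 and 102 TPM in chronic libraries. All 3 chronic libraries were below all 6 others, and the 1 high value was the acute library of code Z. Group means were 179 ± 9.89, 202 ± 59.1 and 109 ± 6.86 TPM (SD, n = 3). Against standard oxygen Il1rn fell in chronic hypoxia by 0.70 on the log2 scale, with an SE of 0.097 and a limma adjusted p of 0.0273. The standard mean was 1.63 times the chronic mean, and the level was lower in 3 of 3 code pairs (-0.68, -0.58 and -0.85). The call also passed with the code as a block (0.0128) and without the code Z libraries (0.00927). It was lost in 1 fit over all 9 libraries (0.0518), and when standard replicate 1, standard replicate 3, chronic replicate 1 or chronic replicate 2 was left out (0.156, 0.129, 0.0999 and 0.146), with log2 differences of -0.75 to -0.68. Against acute hypoxia the log2 difference was -0.84 ± 0.201 (SE) with an adjusted p of 0.0986. It passed with the block (0.04) and, at -0.57, without the code Z libraries (0.0166). Acute against standard gave 0.14 ± 0.198 (SE) and an adjusted p of 1, and -0.06 without the code Z libraries.

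The antagonist exceeded both agonists in every library. The summed level of Il1a and Il1b was 0.371 to 7.01 TPM, and Il1rn was 29.2 to 300 times that sum. The lowest ratios, 40.8, 38.5 and 29.2, were those of the code Z libraries. The highest rests on the sum of 0.371 TPM in chronic replicate 2, so the size of the ratio is uncertain. TPM is scaled by gene length, so the ratio compares levels between genes. Most alike to Il1rn over the 9 libraries were Pkp2 (Pearson r 0.972), Srxn1 (0.962) and Gclc (0.959). Pkp2 encodes a desmosomal plakophilin, Srxn1 an antioxidant enzyme that repairs peroxiredoxins, and Gclc the catalytic subunit of the first enzyme of glutathione synthesis. Srxn1 had means of 99.9, 127 and 50.2 TPM and Gclc of 28.5, 34 and 19.1 TPM in standard, acute and chronic libraries.

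Il18 (ENSMUSG00000039217, chr9:50554827-50581840, plus strand), the other cytokine matured by caspase-1, had 3.39, 4.43 and 2.82 TPM in standard, 5.44, 4.45 and 5.13 TPM in acute and 6.68, 4.35 and 4.79 TPM in chronic libraries. The acute libraries were all above the standard ones, but the lowest of them by only a narrow margin (4.45 against 4.43 TPM). The log2 difference in acute against standard was 0.41 ± 0.178 (SE) with a limma adjusted p of 0.715. In chronic against standard it was 0.46 ± 0.213 (SE), with overlapping libraries and an adjusted p of 0.256. Chronic and acute libraries overlapped (0.05 ± 0.181, adjusted p = 0.909), and rescaling turned that value to -0.08. The decoy receptor Il18bp, which captures interleukin-18, was at 1.91 to 11.6 TPM and was lowest in the code Z library of each group.

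The accessory chain Il1rap (ENSMUSG00000022514, chr16:26581704-26730117, plus strand) had 5.44, 6.37 and 5.63 TPM in standard, 6.6, 6.03 and 9.39 TPM in acute and 5.85, 5.85 and 6.69 TPM in chronic libraries. The groups overlapped, and 1 acute library, of code Z, stood above the rest. The log2 differences were 0.27 ± 0.178, 0.07 ± 0.134 and -0.21 ± 0.179 (SE) in the 3 comparisons, with limma adjusted p of 0.926, 0.804 and 0.551. The value for chronic against standard became -0.09 after rescaling. Exons of Il1rap overlap the antisense gene Gm20319. The chains that Il1rap pairs with were scarce: the interleukin-1 receptor Il1r1 was at 0.279 to 0.691 TPM and the decoy Il1r2 at 0 to 0.132 TPM.

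Of 9 other receptors of the family, 7 were below the filter in every comparison. The interleukin-33 receptor Il1rl1 was at 0.027 to 0.123 TPM in standard, 0.073 to 0.269 TPM in acute and 1.33 to 1.85 TPM in chronic libraries, with every chronic library above all others and standard and acute libraries overlapping. It was not tested at these levels. The interleukin-18 receptor accessory chain Il18rap had 3.87, 11.2 and 4.69 TPM in standard, 5.27, 7.47 and 11.7 in acute and 10.7, 9.6 and 19 TPM in chronic libraries, although its partner Il18r1 did not exceed 0.175 TPM. With the code as a block Il18rap rose in chronic hypoxia, by a log2 difference of 0.96 against standard (limma adjusted p = 0.0194, 0.222 without a block) and 0.62 against acute (0.0437, 0.339 without a block). The second of these was lost when rescaling was added (0.103). Sigirr, an inhibitory receptor of the family and the other receptor tested, was at 1.52 to 7.6 TPM. Both receptors were called in chronic against standard without the code Z libraries, Sigirr with a log2 difference of 1.13 (0.0298). In that setting 21.1% of all genes were called.

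Nlrp3 (ENSMUSG00000032691, chr11:59541568-59566956, plus strand), the sensor, had 17.5, 36.5 and 17.7 TPM in standard, 31.9, 31.7 and 32.6 TPM in acute and 43.5, 49.6 and 53 TPM in chronic libraries. The chronic libraries were all above the other 6. The acute libraries were close together and above 2 of 3 standard libraries, while the standard library of code Z exceeded them. Group means were 23.9 ± 10.9, 32.1 ± 0.449 and 48.7 ± 4.82 TPM (SD, n = 3). In chronic against standard the log2 difference was 1.08 ± 0.283 (SE) and the limma adjusted p was 0.0997. Nlrp3 rose there with the code as a block (0.0269), with rescaling added to the block (0.90, 0.0488), without the code Z libraries (1.35, 0.0026) and without standard replicate 2 alone (1.41, 0.00931). Within codes X, Y and Z the differences were 1.27, 1.43 and 0.53. Between chronic and acute hypoxia the ratio of means was 1.52 and the log2 difference 0.58 ± 0.105 (SE), with adjusted p of 0.0653 without and 0.0176 with the block. The 3 code pairs gave 0.44, 0.63 and 0.69.

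Acute against standard depended on the code Z libraries for Nlrp3. With all 6 libraries the log2 difference was 0.49 ± 0.276 (SE), with limma adjusted p of 0.861 without and 0.401 with the code as a block. The pairs of codes X and Y gave 0.83 and 0.80, and the pair of code Z gave -0.16. Without the code Z libraries Nlrp3 rose by 0.82 ± 0.0751 (SE) with an adjusted p of 0.0158. That fit held only the libraries of codes X and Y, and its SE rests in part on spread pooled over all genes. Without standard replicate 2 alone Nlrp3 rose by 0.83, with an adjusted p of 0.0475. That standard library had the highest Il1a, Il1b, Il1f9 and Nlrp3 levels of its group. The part of its other features in the Nlrp3 value was not tested.

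**Figure D2:**
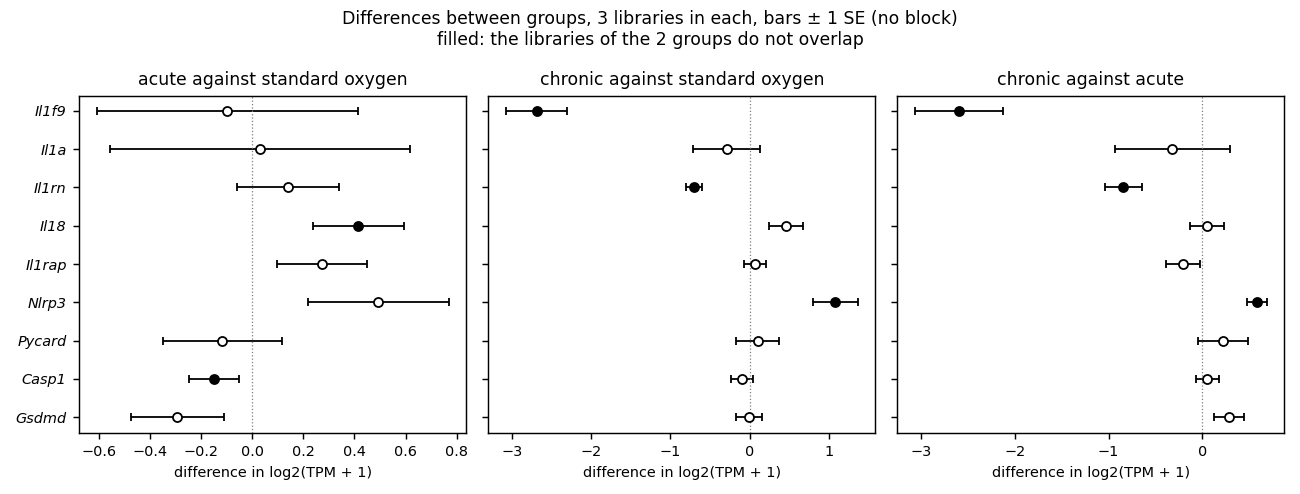
Difference in log2(TPM + 1) for each tested member in the 3 comparisons (horizontal axis, first group minus second), with bars for the SE of the limma fit without a block and filled points where the libraries of the 2 groups did not overlap. Il1f9 lies at -2.69 and -2.6 in the 2 comparisons with chronic hypoxia, Il1rn at -0.70 and -0.84 and Nlrp3 at 1.08 and 0.58, and Il18 and Casp1, filled in acute against standard, lie at 0.41 and -0.15.

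Pycard (ENSMUSG00000030793, chr7:127989708-127993867, minus strand), the adaptor, had 71.6, 116 and 83.3 TPM in standard, 68.9, 73.3 and 107 TPM in acute and 76, 82.4 and 137 TPM in chronic libraries. The groups overlapped and the code Z library was the highest of each. Log2 differences were -0.12 ± 0.233, 0.10 ± 0.271 and 0.22 ± 0.268 (SE) in the 3 comparisons, with limma adjusted p of 1, 0.856 and 0.684, and the second became -0.08 after rescaling. Exons of Pycard overlap the antisense gene Gm45205.

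Casp1 (ENSMUSG00000025888, chr9:5298517-5307265, plus strand), the protease, had 73.4, 85.6 and 71.9 TPM in standard, 68.7, 68.6 and 69.8 TPM in acute and 79.2, 76.5 and 60.5 TPM in chronic libraries. The acute libraries were below all standard ones, but the log2 difference was -0.15 ± 0.097 (SE) with a limma adjusted p of 0.919. In chronic hypoxia the code Z library was the lowest, and the group overlapped both others. The log2 differences there were -0.10 ± 0.138 against standard (adjusted p = 0.712) and 0.05 ± 0.124 (SE) against acute (0.851). The first became 0.10 without the code Z libraries, and the second -0.10 after rescaling.

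Gsdmd (ENSMUSG00000022575, chr15:75862327-75867408, plus strand), the pore-forming substrate, had 75.3, 100 and 71.8 TPM in standard, 62.2, 57.5 and 81.6 TPM in acute and 80.5, 72.9 and 90.7 TPM in chronic libraries. The acute group had the lowest mean, 67.1 ± 12.7 TPM (SD, n = 3), but its code Z library was above 2 of the standard ones. Log2 differences were -0.29 ± 0.182, -0.01 ± 0.158 and 0.28 ± 0.159 (SE), with limma adjusted p of 0.897, 0.98 and 0.356. With the code as a block the adjusted p against standard was 0.149 in acute libraries, and that of chronic against acute was 0.0659. The code pairs of acute against standard lay close together, at -0.27, -0.31 and -0.30.

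The other genes of the pathway were read from lists of receptors, signalling proteins, inflammasome regulators, pyroptosis effectors and NF-kappaB induced genes, with the same fits. These lists too were chosen with earlier results known, and nothing is read from their counts. In acute against standard 0.0273% of all genes tested were called without a block and 0.71% with it. In acute hypoxia 0 of 17 signalling genes, 0 of 21 inflammasome regulators and 0 of 9 caspases and effectors were called, without or with the block. Of 16 NF-kappaB induced genes, 1 fell without a block and 3 with it. Nfkbid, an IkappaB protein of the nucleus, had 116, 133 and 113 TPM in standard and 48.3, 45.8 and 51.1 TPM in acute libraries, a log2 difference of -1.30 ± 0.1 (SE) with a limma adjusted p of 0.0244. That call without a block was lost when any of standard replicates 1 and 3 or acute replicates 1, 2 and 3 was left out (0.0559 to 0.254), and in 1 fit over all 9 libraries (0.103). With the block Nfkbid (0.00871) fell together with the chemokines Ccl3 (-1.64, 0.0117) and Ccl4 (-1.47, 0.0299). Without the code Z libraries 5 NF-kappaB induced genes were lower and 4 inflammasome regulators were higher, among them Txnip (2.75, 0.0014). In that setting 2.95% of all genes tested were called.

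Between chronic hypoxia and standard oxygen, 0 of 17 signalling genes were called without a block, and 5 rose and 2 fell with it. Of all genes tested 2.69% were called without a block and 18.4% with it. The list's median log2 difference was 0.16, as was that of all genes tested. The highest of the 7 was Irak3, a brake on interleukin-1 receptor signalling, with 65, 95.2 and 61.3 TPM in standard and 134, 127 and 122 TPM in chronic libraries (0.81, limma adjusted p = 0.068 without and 0.0326 with the block, 0.0668 with rescaling added). Traf6, the ubiquitin ligase downstream of the IRAK kinases, rose by 0.69 (0.0213). Its acute libraries were also all above the standard ones, with a log2 difference of 0.88 and no call. The limma adjusted p was 0.274 there without and 0.0889 with the block. Peli1, Ikbkb and Nfkb1 rose by 0.51, 0.31 and 0.38, and with Irak3 they lost the call when rescaling was added. Irak2, a kinase of the same complex, fell by 0.36 (0.0264), and Ikbkg, the regulatory subunit of the IkappaB kinase, fell by 0.49 (0.0398). Rescaling kept the calls of Irak2, Traf6 and Ikbkg. When the code Z libraries were left out, 4 signalling genes were higher and 2 lower, beside 21.1% of all genes called.

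Against acute hypoxia Irak3 was called without a block as well. It had 56.1, 50.4 and 70 TPM in acute libraries, all below the chronic ones, and rose by 1.12 ± 0.137 (SE) with a limma adjusted p of 0.0428. Leaving out acute replicate 1, acute replicate 2, chronic replicate 1 or chronic replicate 2 ended that call (0.163 to 0.236), and the block kept it (0.0122). With the block Ikbkb and Nfkb1 rose and Ikbkg fell again, and the calls of Ikbkb and Nfkb1 were lost when rescaling was added. Of all genes tested in chronic against acute, 0.695% were called without a block and 15.5% with it.

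Of 21 other inflammasome sensors and regulators, 2 rose in chronic against standard without a block, beside 2.69% of all genes called. Txnip, a thioredoxin-binding protein described as an NLRP3 partner and a regulator of glucose uptake, had 26.6, 91.2 and 24.6 TPM in standard, 184, 173 and 102 TPM in acute and 343, 343 and 248 TPM in chronic libraries. Its 3 groups did not overlap, and the chronic against standard log2 difference was 2.94 ± 0.488 (SE) with a limma adjusted p of 0.0391. P2rx7, the ATP-gated channel whose opening lets potassium leave the cell, went from 16.4 ± 1.07 to 25.8 ± 2.54 TPM (SD, n = 3), by 0.62 ± 0.116 (SE) with 0.0498. Both calls were lost when standard replicate 1, standard replicate 3, chronic replicate 1 or chronic replicate 2 was left out (0.131 to 0.209). That of P2rx7 was also lost after rescaling (0.14) and with a pseudocount of 5 (0.0514).

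With the code as a block 4 of the 21 regulators rose and 1 fell in chronic against standard, beside 18.4% of all genes called. Nlrp1b, another sensor, and Naip6, a receptor of bacterial flagellin, rose by 0.68 and 0.50 beside Txnip and P2rx7. Rescaling kept Txnip, Nlrp1b and Panx1 and lost Naip6 and P2rx7. When the code Z libraries were left out, 7 regulators were higher and 2 lower, beside 21.1% of all genes called. Panx1, a membrane channel that releases ATP, had 55.7, 28.7 and 56.2 TPM in standard and 26.6, 24.4 and 13.2 TPM in chronic libraries. It fell by 1.09 with the block (limma adjusted p = 0.00689, 0.137 without). In chronic against acute Txnip, P2rx7, Card9 and Nek7, the NLRP3-binding kinase, rose and Panx1 and Naip2 fell with the block. In that setting 15.5% of all genes tested were called. Rescaling lost Nek7 and Card9. Naip genes share 10.9 to 23.8% of their 75-base stretches with another gene, mostly each other, so their values are uncertain. The list's median log2 differences were 0.24 and 0.19 in the 2 comparisons with chronic hypoxia.

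**Figure D3:**
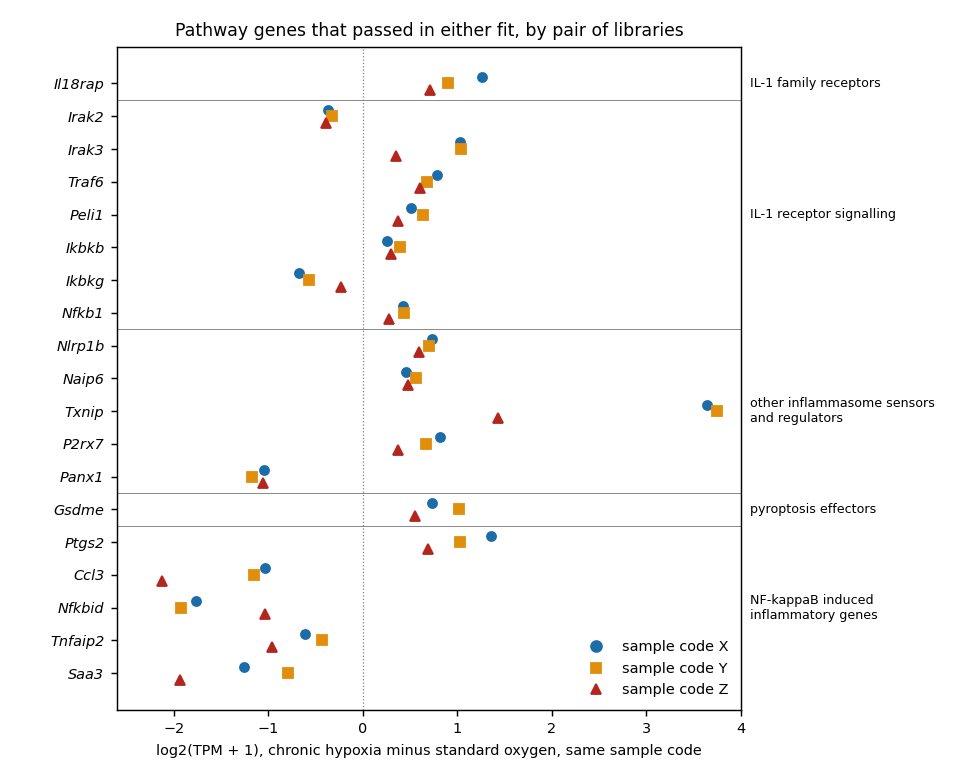
Difference in log2(TPM + 1), chronic hypoxia minus standard oxygen (horizontal axis), for the pathway genes called without a block or with the sample code as a block, grouped by list, with 1 marker per sample code. The 3 pairs of libraries have the same sign for every gene drawn, and the pair of code Z lies closest to 0 for Txnip and farthest from 0 for Ccl3 and Saa3.

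Among caspases and pyroptosis effectors, 0 of 9 were called without a block in any comparison. Gsdme, a gasdermin cleaved by caspase-3, had 1.57, 1.03 and 1.16 TPM in standard and 3.25, 3.37 and 1.98 TPM in chronic libraries. With the block it rose by 0.77 (limma adjusted p = 0.049), which rescaling ended (0.0848). The most abundant of the list were Ninj1, which ruptures the membrane late in lytic death, at 225 to 454 TPM, and Chmp4b, a membrane-repair protein, at 148 to 183 TPM.

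Of 16 NF-kappaB induced genes, 2 fell in chronic against standard without a block and 4 fell and 1 rose with it. The shares of all genes called were 2.69% and 18.4%. The list's median log2 difference was -0.28, beside 0.16 over all genes tested. Ccl3 had 650, 1015 and 594 TPM in standard, 196, 167 and 392 in acute and 317, 267 and 233 TPM in chronic libraries. It fell in chronic hypoxia by 1.43 with an SE of 0.227 and a limma adjusted p of 0.0366. Nfkbid fell to 33.5, 29.1 and 64.6 TPM, by 1.57 with an SE of 0.288 and an adjusted p of 0.0475. Both calls were lost when standard replicate 1, standard replicate 3, chronic replicate 1 or chronic replicate 2 was left out, and that of Nfkbid also without standard replicate 2 (0.0665 to 0.182). With the block Tnfaip2 and Saa3 fell by 0.67 and 1.33. Ptgs2, the inducible cyclooxygenase, rose by 1.03 (0.0359), a call that rescaling ended (0.061). When the code Z libraries were left out, 5 of the 16 were higher and 9 lower, beside 21.1% of all genes called. Among the 5 were the NF-kappaB inhibitor Nfkbia (0.98, 0.00897), Nfkbiz, Acod1, the chemokine Cxcl2 and Ptgs2.

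Between chronic and acute hypoxia 0 of 16 NF-kappaB induced genes were called without a block, beside 0.695% of all genes. With it the cytokine Tnf rose by 0.49 (limma adjusted p = 0.0165), and the feedback inhibitor Tnfaip3, the RNase Zc3h12a and the acute-phase gene Saa3 fell by 0.51, 0.58 and 1.41. These 4 calls, beside 15.5% of all genes called with the block, were kept when rescaling was added. When the code Z libraries were left out, 6 of the 16 were higher and 5 lower, beside 16.3% of all genes called. Cxcl2 (1.49, 0.00733), Ccl3, Ccl4, Nfkbiz and Acod1 were then higher beside Tnf. Saa3 was highest in the code Z library of each group, with 145 TPM in standard, 169 in acute and 37.1 in chronic, against 12.5 to 35.7 TPM in the other libraries.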

How the data were processed

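The study sequenced mRNA (TruSeq, 75 bp paired-end) of cultured mouse primary macrophages, 9 libraries in 3 groups of 3. The authors deposited TPM values in 3 tables, 1 per pair of groups, and per the submitters' processing notes reads went through FastQC, STAR and featureCounts against GRCm38. How TPM was computed, software versions and depth were not given in the sources used here, so no count model was fitted. The values of a library were identical in both tables that hold it.

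Values were analysed as log2(TPM + 1), keeping genes with a mean of at least 1 TPM over the 6 libraries of a comparison. Each comparison was fitted on the whole table with limma 3.58.1 in R 4.3.3 (lmFit, eBayes with trend, two-sided, Benjamini-Hochberg adjustment over all genes tested, threshold 0.05). The fit without a block was also run on simulated data. Those had independent noise of capped spread and no grouping by code, so they cannot show how the fits behave on these libraries. Exact permutation of 3 against 3 libraries cannot go below p = 0.10. Only the spread between these libraries enters the p-values, and it may be partly technical. It is pooled in part over genes by eBayes, and the pooled part weighs more where fewer libraries are left. The members and gene lists were chosen with earlier results of these data known. All 10 members are named, with the pathway genes called without a block or with the code as a block, the 2 most abundant genes of each list as levels where they are of use, and the 3 genes most alike to Il1f9, Il1b and Il1rn. Single genes outside that rule (Il1f5, Il1f8, Il1f10, Il33, Il1r1, Il1r2, Il18r1, Il1rl1, Il1rl2, Nfkbia, Nfkbiz, Cxcl2, S100a8 and marker genes) were named after their values were seen. Gene symbols and positions are from GENCODE M21.

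Whether libraries pair was read from the correlation of their deviations from the group means. Libraries with the same description code correlated in all 3 comparisons (r of 0.378 to 0.539, 0.389 to 0.535 and 0.399 to 0.633, 3 of 3 pairs over 0.1 in each). Same title numbers gave mean r of -0.122 and -0.136 against standard and, where they give the same pairs as the code, 0.54. Libraries of codes X and Y with each other had a mean r of 0.151. Alternatives were other pseudocounts and filters, rescaling by median ratios, 1 fit over all libraries, blocks by title number or code, and leaving out libraries.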

Additional observations from a re-analysis of the deposited data

How the results depend on the processing

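Depth is unknown, and Il1a and Il1b rest on levels of a few TPM or less. The number of genes changed in acute against standard was 3. It became 21 with median-of-ratios rescaling, 25 in 1 fit over all 9 libraries, 319 without the code Z libraries and 0 to 33 when 1 library was left out. Members changed there went from 0 to 1 without the code Z libraries, and were 0 to 1 when 1 library was left out. In chronic against standard 298 genes were changed. There were 120 with no filter on low values, 770 in 1 fit over all 9 libraries, 2300 without the code Z libraries and 1 to 522 when 1 library was left out. The 2 members changed became 1 with no filter and 0 to 3 when 1 library was left out. In chronic against acute 77 genes were changed. There were 7 with no filter, 417 in 1 fit over all 9 libraries, 1788 without the code Z libraries and 1 to 308 when 1 library was left out. Members changed there were 2 in 1 fit over all 9 libraries and 3 without the code Z libraries.

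With the title number as a replicate block the genes changed were 0, 1 and 1724 in acute against standard, chronic against standard and chronic against acute, and the members changed 0, 0 and 3. With the code as a replicate block they were 78, 2039 and 1724 genes, and 0, 3 and 3 members. Adding rescaling to the code block gave 57, 1276 and 1085 genes and left 3 members in both comparisons with chronic hypoxia. The code block changed no member's call other than those of Il1f9, Il1rn and Nlrp3.

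Small values changed sign, none of them called. In acute against standard, Il1a was -0.173 with a pseudocount of 0.1 and Il1rn -0.0624 without the code Z libraries. In chronic against standard, rescaling turned Il1rap to -0.0872 and Pycard to -0.0751, with or without the code block, and leaving out the code Z libraries turned Casp1 to 0.0992 and Gsdmd to 0.0579. Between chronic and acute hypoxia, rescaling turned Il18 to -0.0816 and Casp1 to -0.102, with or without the code block. Leaving out 1 library at a time gave, in acute against standard, -0.606 to 0.284 for Il1f9, -0.614 to 0.415 for Il1a, -0.0853 to 0.293 for Il1rn and -0.312 to 0.0754 for Pycard. For chronic against standard it gave -0.159 to 0.295 for Pycard, -0.17 to 0.021 for Casp1 and -0.101 to 0.138 for Gsdmd, and in chronic against acute -0.107 to 0.154 for Il18, -0.0414 to 0.414 for Pycard and -0.0205 to 0.171 for Casp1. With no filter the calls of Txnip, P2rx7, Ccl3 and Nfkbid in chronic against standard and of Irak3 in chronic against acute were lost (adjusted p of 0.0897, 0.0841, 0.0796, 0.101 and 0.0766). The causes were not tested.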
